A study of Mus musculus with 10 samples.

Results

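A set of 56 genes that act in mitosis was followed through 10 mouse ovaries. The set holds the regulators, checkpoint proteins, kinetochore and spindle components and chromosome proteins of dividing cells, and the kinesin motors were not part of it. Members were chosen by gene symbol, all 56 were present among the 55487 genes of the count table, and all 56 passed the filter on low counts that left 18956 genes to be tested. The ovaries came from C57BL/6J mice. The Control group (n = 4) was 8 weeks old, and the Aged group (n = 3) was 11 months old by the labels, an age that the study's methods put slightly lower. The Aged+CF group (n = 3) was 11 months old and had been injected repeatedly with 200 μL of CEFFE, a protein preparation from fat without cells, at a concentration of 3 μg/μL. Control and Aged mice received saline by the same route, the tail vein. All 3 groups had also been given 10 IU of PMSG, a gonadotropin that drives follicle growth, 48 h before collection. Each library was made from whole ovary, a mixture of oocytes, granulosa, luteal, stromal, vascular and immune cells. The study's methods call its replicates biological, and the labels number the ovaries within a group without naming animals, so the p-values below measure the spread between these samples. The titles of the Aged+CF samples all carry the same running index and differ only in the number that follows it.

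Mitosis separates the copied chromosomes into 2 daughter cells. Cyclin B with Cdk1 drives entry, the spindle checkpoint holds the cell until each kinetochore is attached, and the anaphase-promoting complex then marks securin and cyclin B for destruction, which frees separase to cut the link between sister chromatids. Most of these genes are transcribed shortly before and during division and are nearly silent in resting cells. In the ovary, the granulosa cells of growing follicles are the main dividing cells, and oocytes store many of the same mRNAs for meiosis and the first cleavages. In whole-ovary RNA, fewer cells of a type and less of an mRNA per cell cannot be told apart.

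Promoters of genes that are active late in the cell cycle often carry CCAAT boxes, bound by NF-Y, and a cell cycle homology region with the letters TTTGAA, a site of the DREAM and B-MYB complexes. Of the 56 members, 47 had an entry in the RefSeq promoter table (GRCm38.p6), with 52 promoters in all, and Smc4, Pbk, Ccna2, Spc24, Aurkb, Incenp, Tpx2, Foxm1 and Cdca2 had none. Several of these promoters belong to the same gene, and some overlap. The intervals below count all 52 as independent, so they are only a rough guide. CCAAT (either strand) stood in the 250 bases before the start in 39 of 52 member promoters (75%, exact binomial 95% interval 61.1% to 86.0%), against 33.8% of all 32851 promoters and 34.7% of the 16118 promoters of tested genes. TTTGAA (either strand) stood in 18 of 52 (34.6%, 22.0% to 49.1%), against 16.0% and 11.2%. Both motifs stood in 17 of 52 (32.7%, 20.3% to 47.1%), against 5.55% and 4.14%. A match of letters is not a bound site. The stretches below show the motifs in the 4 members with both motifs and the largest decreases in Aged ovaries (Espl1, Mki67, Top2a and Ckap2l) and in Bub3, added after its values were seen as a member with both motifs whose level hardly differed. Each runs 5′ to 3′ on the strand of the gene, from 10 bases before its first motif to the last base before the start, and capitals mark CCAAT or its reverse complement ATTGG and TTTGAA or its reverse complement TTCAAA.
Espl1 promoter (chr15:102296239-102296292, plus strand): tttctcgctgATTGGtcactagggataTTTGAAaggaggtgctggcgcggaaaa
Mki67 promoter (chr7:135716380-135716577, minus strand): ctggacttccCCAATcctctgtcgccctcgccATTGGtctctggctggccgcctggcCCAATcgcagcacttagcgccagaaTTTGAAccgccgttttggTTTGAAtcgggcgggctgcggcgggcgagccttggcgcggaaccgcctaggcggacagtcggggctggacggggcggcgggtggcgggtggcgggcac
Top2a promoter (chr11:99024190-99024426, minus strand): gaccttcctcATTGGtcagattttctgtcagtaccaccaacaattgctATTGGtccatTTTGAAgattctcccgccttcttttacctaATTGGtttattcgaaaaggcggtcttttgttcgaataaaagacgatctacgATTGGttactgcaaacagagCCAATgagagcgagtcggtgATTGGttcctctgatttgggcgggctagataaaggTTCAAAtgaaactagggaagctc
Ckap2l promoter (chr2:129297213-129297344, minus strand): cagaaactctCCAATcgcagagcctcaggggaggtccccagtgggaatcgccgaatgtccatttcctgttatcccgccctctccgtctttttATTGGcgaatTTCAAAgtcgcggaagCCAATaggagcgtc
Bub3 promoter (chr7:131560286-131560493, plus strand): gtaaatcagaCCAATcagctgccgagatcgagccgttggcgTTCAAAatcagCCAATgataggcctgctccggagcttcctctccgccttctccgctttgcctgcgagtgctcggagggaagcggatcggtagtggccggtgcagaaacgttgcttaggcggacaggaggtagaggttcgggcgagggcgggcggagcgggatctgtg
Espl1, with the shortest stretch, held a single CCAAT box that ended 39 bases before the start and a TTTGAA that ended 21 bases before it. Top2a held 6 CCAAT boxes and 2 TTTGAA matches. The 15 members with both motifs had a median log2 fold change of -1.54 in Aged vs Control, and the 32 members without both had one of -1.53. Cdca5, the member with the largest decrease, had no CCAAT in its 250 bases.

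Total counts per ovary ranged from 15761789 to 21318254, and levels are given as CPM, the counts over the TMM-scaled library size. Oocyte, granulosa and luteal marker lists were detected in all 10 ovaries, as the tissue label implies. Control 33 and Aged 34 stood apart by the summed markers of oviduct epithelium (Ovgp1, Pax8, Foxj1 and Sox17). The sum was 356 and 301 CPM there and between 15.2 and 50.3 CPM in the other ovaries. Most of it was Ovgp1 (298 and 245 CPM), and Foxj1 and Pax8 were also highest in these ovaries. Sox17 did not set them apart, at 19.2 and 18.5 CPM against 12.2 to 25.1 CPM elsewhere. Aged 34 also had the most lymphocyte marker RNA, 50.6 CPM against 7.21 to 15.7 CPM elsewhere. Counts and medians of the mitosis genes are given with and without them where they rest on these ovaries, and the fold changes of single genes are from all 10 ovaries.

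The members lay on 17 chromosomes (GENCODE M21, GRCm38). Mki67, for example, spans chr7:135689784-135716361 on the minus strand, Cdca5 chr19:6084983-6091777 on the plus strand, Bub3 chr7:131560222-131571895 on the plus strand and Pttg1 chr11:43420250-43426251 on the minus strand. Foxm1, Ncapd2 and Top2a share exon bases with another gene on the same strand, and 11 members share them on the opposite strand. The strand setting of the counting is not given in the sources used here, so reads of such pairs may not be told apart.

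The members as a whole were high in Control, low in Aged and between the 2 in Aged+CF. Their summed level was 1875, 2433, 1880.5 and 2164 CPM in Control ovaries 31, 32, 33 and 34, 982, 1037 and 463 CPM in Aged ovaries 31, 33 and 34, and 1413, 1081 and 1564 CPM in Aged+CF ovaries 30, 32 and 34. The same order of ovaries is used for all values below. No Aged ovary reached the level of an Aged+CF ovary, and no Aged+CF ovary reached that of a Control ovary. The same ovaries stood out in most members. Aged 34 was the lowest of all 10 ovaries in 54 of 56 members, Control 32 was the highest in 46, Aged+CF 32 was the lowest of its group in 54, and Aged+CF 34 was the highest of its group in 44. On the log2 scale, relative to the Control mean, the median member stood at -1.22, -1.02 and -2.80 in the Aged ovaries and at -0.58, -1.08 and -0.44 in the Aged+CF ovaries. The spread between Aged ovaries was correspondingly wide, with a median SD of the members of 0.92 (log2 CPM) against 0.32 for all tested genes, while it was 0.22 against 0.19 in Control and 0.32 against 0.18 in Aged+CF.

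**Figure D1:**
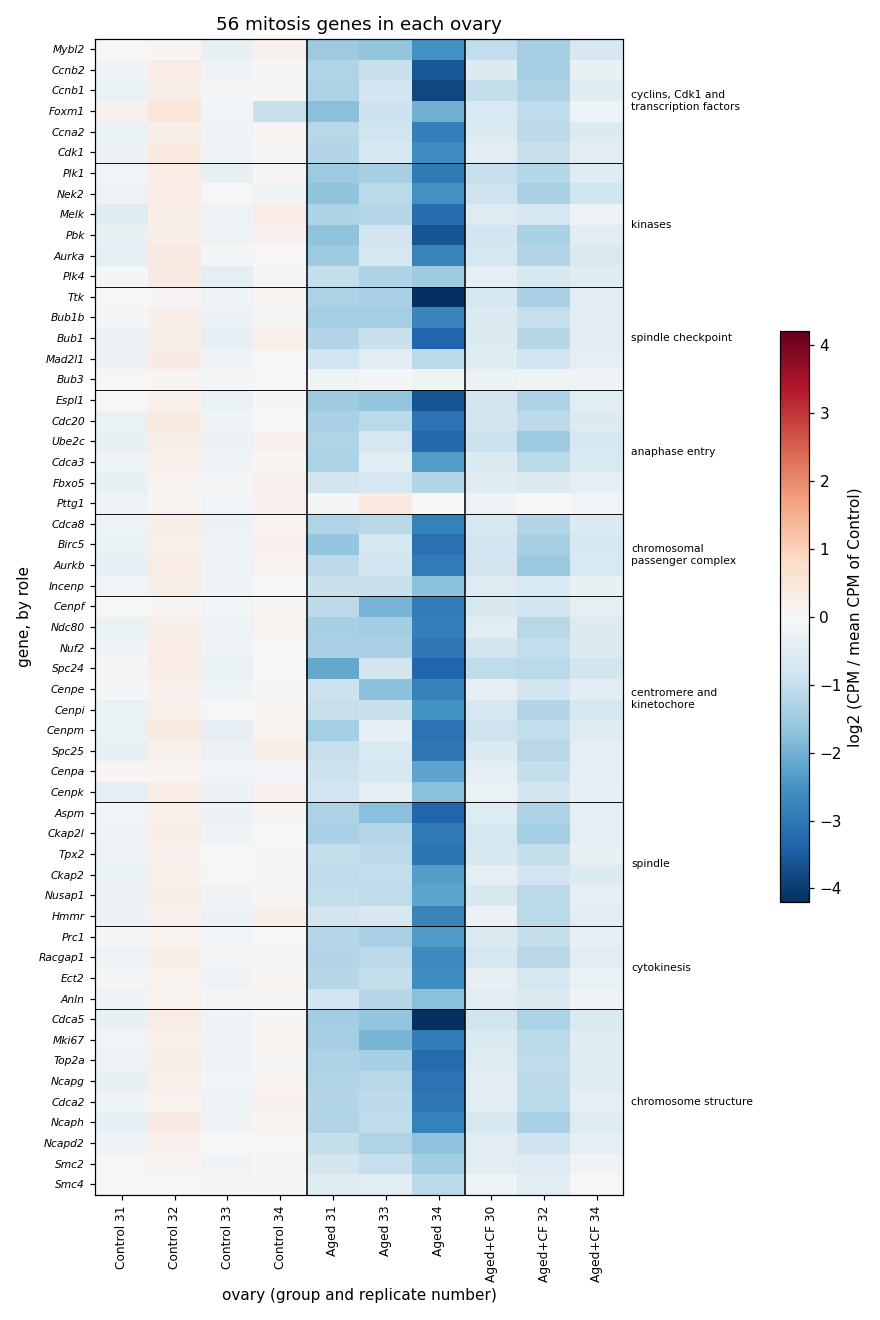
Level of each of the 56 mitosis genes (rows, grouped by role) in each ovary (columns), as log2 of the CPM over the mean CPM of the Control group, blue for lower and red for higher. Aged 34 is the bluest column, with the lowest value of all ovaries in 54 genes, and Bub3 and Pttg1 are nearly white throughout.

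The first comparison asked how the genes differ with age. In Aged vs Control, 55 of 56 members had a lower mean level in Aged and 53 had no overlap between the groups (15.6% of all tested genes had none in this direction). A gene was called where its fold change reached 1.5 and its p lay under 0.05, and both the p adjusted over all tested genes and the unadjusted p were used. At adjusted p, 44 of 56 members decreased (6.06% of tested genes), and at unadjusted p 54 did (9.44%). None increased by either rule. The median log2 fold change of the members was -1.52, against -0.00053 for all tested genes, and the members ranged from -2.04 (Cdca5) to 0.14 (Pttg1). The 12 members not called at adjusted p were Ccnb1, Ccnb2, Pbk, Bub1, Bub3, Ube2c, Pttg1, Aurkb, Cenpk, Cenpm, Spc25 and Hmmr, and all of these but Bub3 and Pttg1 were called at unadjusted p. The count of 44 fell to 22 without Control 32 and to 25 without Control 34, and it was 48 without Aged 34 and 45 without Control 33 and Aged 34 together. Calls over all tested genes in either direction at adjusted p were 2096 in the main fit, 1081 without Control 32 and 1090 without Control 34. They were 3112 without Aged 34 and 2743 without Control 33 and Aged 34. Without Aged 34 the median of the members was -1.09 and the lowest value of a member -1.61.

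The second comparison asked how Aged ovaries differ with CEFFE. In Aged+CF vs Aged, 54 of 56 members had a higher mean level in Aged+CF, with a median log2 fold change of 0.78 (all tested genes -0.02) and a range from -0.24 (Pttg1) to 1.23 (Mki67). No member passed the adjusted p of edgeR's quasi-likelihood test (0% of tested genes did in this direction), and the lowest adjusted p of a member was 0.161. At unadjusted p, 26 members passed 0.05 and 25 of these also passed the fold limit (3.91% of tested genes). The Wald test of DESeq2 called 8 members at adjusted p. Over all tested genes in either direction it called 442, where edgeR's test called 1. The groups did not overlap in 25 members (10.2% of tested genes). The 25 called members were Foxm1, Mybl2, Plk1, Plk4, Melk, Bub1b, Espl1, Incenp, Cenpe, Cenpf, Ndc80, Nuf2, Aspm, Ckap2, Prc1, Anln, Ect2, Racgap1, Smc2, Ncapg, Ncapd2, Top2a, Mki67, Cdca2 and Cdca5. By role, these were all 4 cytokinesis genes, 7 of 9 genes of chromosome structure, 4 of 10 kinetochore genes, 3 of 6 kinases, 2 of 6 cyclins and factors, 2 of 6 spindle genes and 1 each of the checkpoint, anaphase and passenger complex genes. Single ovaries carried much of this count, which was 13 without Aged 34, 42 without Aged 33, 16 without Aged+CF 30 and 10 without Aged+CF 34. The median of the members was 0.41 without Aged 34. Calls over all tested genes in either direction at unadjusted p were 1509 in the main fit and 2360 without Aged 34. They were 1548 without Aged 33, 1193 without Aged+CF 30 and 1170 without Aged+CF 34. At adjusted p, the fit without Aged 34 called 556 genes in either direction but no member (lowest adjusted p of a member 0.0531).

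The third comparison set the CEFFE-treated ovaries against young ones. In Aged+CF vs Control, all 56 members had a lower mean level in Aged+CF, with a median log2 fold change of -0.69 (all tested genes -0.03) and a range from -1.01 (Mybl2) to -0.10 (Pttg1). The groups did not overlap in 50 members (12.2% of tested genes), the exceptions being Foxm1, Plk4, Melk, Pttg1, Cenpk and Smc4. No member passed the adjusted p of edgeR's test (0.0422% of tested genes did), 18 passed an unadjusted p of 0.05, and 11 of these passed the fold limit (4.36% of tested genes). DESeq2 called 2 at adjusted p, and over all tested genes in either direction it called 528, where edgeR's test called 34. The 11 called members were Mybl2, Plk1, Nek2, Bub1b, Cdca8, Cenpi, Nuf2, Nusap1, Prc1, Racgap1 and Mki67. The count was 2 without Control 32 or without Aged+CF 32, 4 without Control 34 or without Aged+CF 30, and 41 without Control 33 and Aged 34 together. With only the Control and Aged+CF ovaries in the fit, and so without the wide spread of the Aged group, it was 37, with 7 at adjusted p. Over all tested genes in either direction, the fit of these groups alone called 1934 at unadjusted p and 487 at adjusted p. The main fit called 1457 and 34, and the fit without Control 33 and Aged 34 called 1964 at unadjusted p. Without Control 32, Control 34, Aged+CF 30 or Aged+CF 32, these calls at unadjusted p were 1048, 1193, 1274 and 859. The 3 comparisons share ovaries and are not independent of each other.

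**Figure D2:**
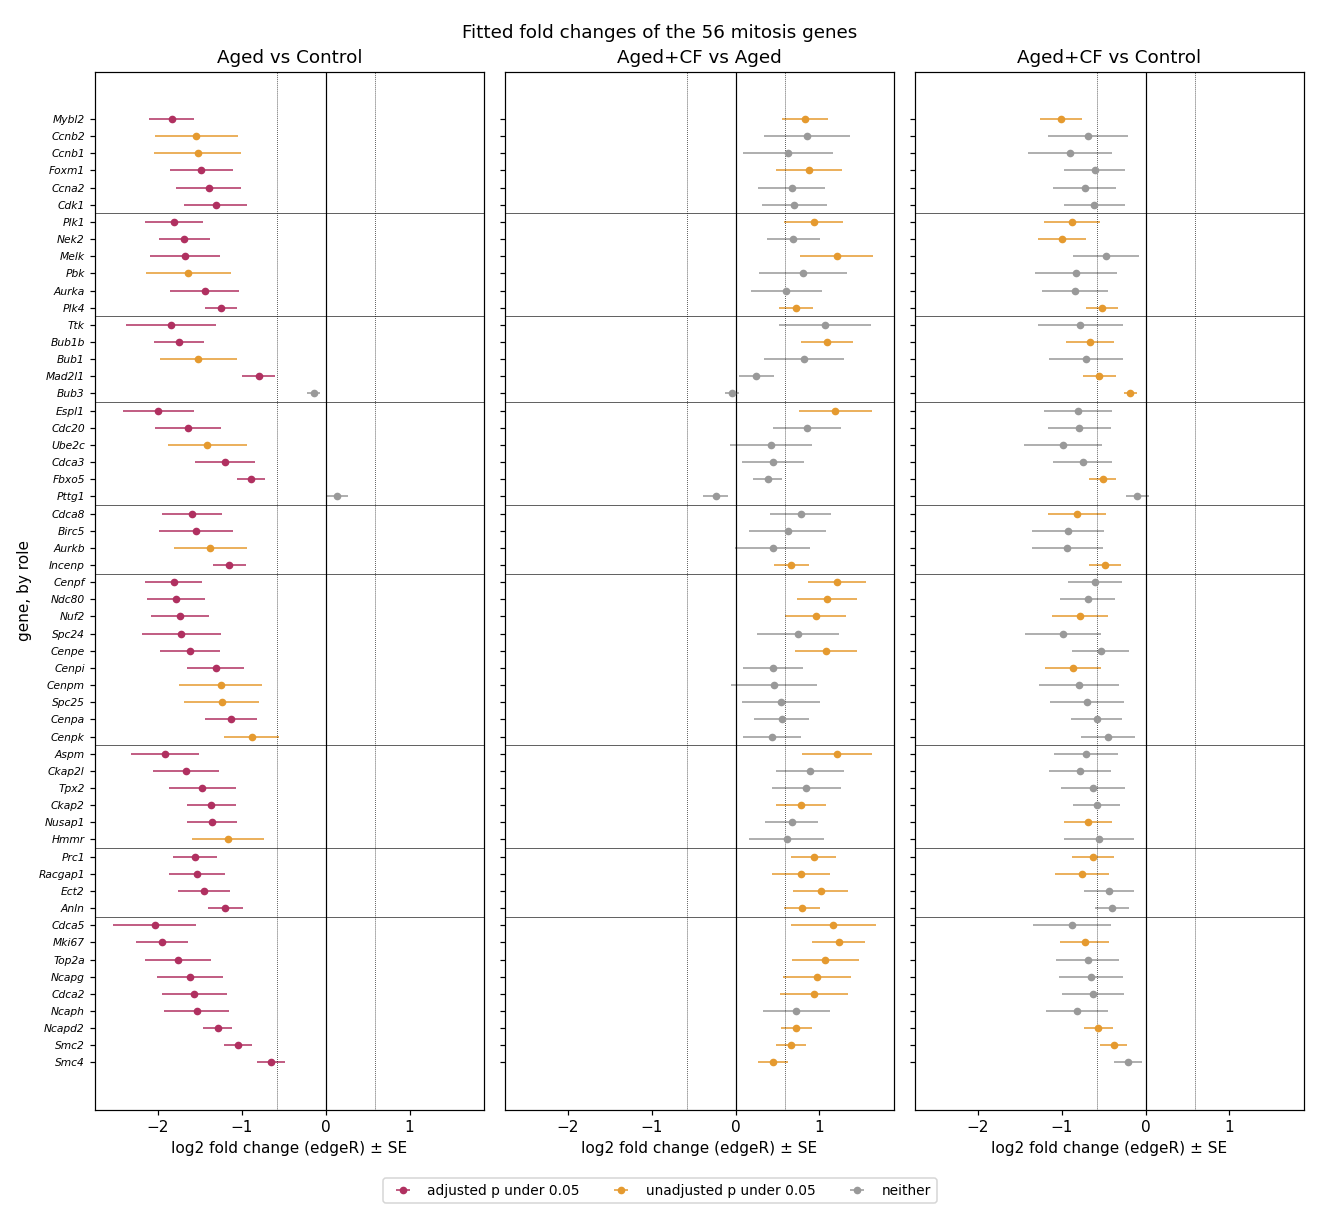
Fitted log2 fold change with its SE (horizontal bars) for each of the 56 mitosis genes in the 3 comparisons (1 panel each), coloured by whether adjusted p, only unadjusted p or neither passed 0.05; dotted lines mark a fold of 1.5. The points lie left of 0 for 55 genes in the first panel, right of 0 for 54 in the second and left of 0 for all 56 in the third.

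Beside the counts by role below stand the same shares of all tested genes as above. For lower levels in Aged than in Control, these were 6.06% at adjusted p, 9.44% at unadjusted p and 15.6% without overlap. For higher levels in Aged+CF than in Aged, the share at unadjusted p was 3.91%. Cyclins, Cdk1 and the transcription factors Foxm1 and Mybl2 bring the cell to mitosis. In Aged vs Control, 4 of these 6 genes decreased at adjusted p, with a median log2 fold change of -1.50, and the cyclins Ccnb1 (-1.53 ± 0.52 SE, adjusted p = 0.0742) and Ccnb2 (-1.54 ± 0.50, adjusted p = 0.062) missed the threshold. Mybl2, or B-MYB, activates late cell cycle promoters. Its level was 24.1, 25.6, 19.8 and 27.7 CPM in Control, 8.53, 7.76 and 4.14 CPM in Aged, and 11.9, 9.30 and 14.95 CPM in Aged+CF. The 3 groups did not overlap. Mybl2 decreased by 1.84 ± 0.27 on the log2 scale in Aged (adjusted p = 0.00515), was 0.83 ± 0.27 higher in Aged+CF than in Aged (unadjusted p = 0.0129, adjusted p = 0.211) and differed by -1.01 ± 0.25 between Aged+CF and Control (unadjusted p = 0.00267, adjusted p = 0.139). Ccnb2, a B-type cyclin with the highest FPKM of the group, stood at 30.5, 42.4, 30.7 and 33.3 CPM in Control, 14.4, 18.1 and 2.92 CPM in Aged, and 23.2, 13.0 and 27.3 CPM in Aged+CF. Aged+CF 32 lay below 2 Aged ovaries. Cdk1, the mitotic kinase itself, stood at 31.98, 50.5, 34.6 and 36.1 CPM in Control, 16.2, 23.8 and 6.29 CPM in Aged, and 27.7, 19.9 and 27.6 CPM in Aged+CF. It decreased by 1.31 ± 0.37 (adjusted p = 0.0407) in Aged, and Aged+CF 32 was again within the range of the Aged ovaries. Foxm1, which shares exon bases with Tex52 and Gm44596 on its own strand, was the only member besides Bub3 and Pttg1 whose Control and Aged ranges overlapped, since Control 34 had 14.9 CPM against 26.3 to 40.0 CPM in the other Control ovaries.

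Of the 6 mitotic kinases, which include the Polo kinases, Aurora A and Nek2, 5 decreased in Aged at adjusted p and Pbk did not (-1.64 ± 0.51, adjusted p = 0.0548). Plk1, the kinase of centrosome maturation and spindle assembly, was at 37.4, 50.4, 32.96 and 41.7 CPM in Control, 14.2, 15.6 and 5.13 CPM in Aged, and 20.6, 17.7 and 27.8 CPM in Aged+CF. The lowest Control ovary lay above the highest Aged+CF ovary, and the lowest Aged+CF ovary above the highest Aged one. Relative to Control, Plk1 differed by -1.81 ± 0.35 (log2) in Aged (adjusted p = 0.0117) and by -0.88 ± 0.33 in Aged+CF (unadjusted p = 0.0248, adjusted p = 0.28), and relative to Aged it differed by 0.93 ± 0.36 in Aged+CF (unadjusted p = 0.0264, adjusted p = 0.252). Plk4, which licenses centriole duplication, had the smallest difference among the kinases, with 19.8, 26.6, 16.1 and 21.9 CPM in Control, 10.6, 8.61 and 7.44 CPM in Aged, and 16.2, 13.2 and 14.7 CPM in Aged+CF. Aged+CF 30 was here just above the lowest Control ovary. The decrease of Plk4 in Aged, 1.25 ± 0.19, had an adjusted p of 0.00608.

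Of the 5 spindle checkpoint genes, 3 decreased in Aged at adjusted p and 4 at unadjusted p. Ttk (Mps1), the kinase that starts the checkpoint, was at 13.4, 14.3, 12.2 and 14.9 CPM in Control, 5.55, 5.29 and 0.662 CPM in Aged, and 8.37, 5.40 and 10.1 CPM in Aged+CF. It decreased in Aged by 1.85 ± 0.54 (adjusted p = 0.0443). Bub1b, which encodes the checkpoint inhibitor BubR1, was at 61.6, 76.6, 55.0 and 67.0 CPM in Control, 24.3, 24.3 and 9.54 CPM in Aged, and 42.6, 32.97 and 47.7 CPM in Aged+CF, with 3 separate ranges. The decrease in Aged was 1.75 ± 0.30 (adjusted p = 0.00836), and the level in Aged+CF was 1.09 ± 0.31 above Aged (unadjusted p = 0.00564, adjusted p = 0.178). Bub3, the partner of BubR1 in the checkpoint complex, differed by -0.14 ± 0.08 in Aged vs Control (adjusted p = 0.238), with 87.5, 93.9, 83.3 and 89.5 CPM in Control, 77.8, 84.8 and 77.9 CPM in Aged, and 74.5, 78.9 and 80.3 CPM in Aged+CF. All Bub3 values of the aged groups but that of Aged 33 lay below all Control values. Of the other checkpoint genes, Mad2l1 decreased by 0.80 ± 0.20 (adjusted p = 0.0245) and Bub1 differed by -1.52 ± 0.46 (adjusted p = 0.0501).

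Among the genes of anaphase entry, 4 of 6 decreased in Aged at adjusted p. Cdc20 activates the anaphase-promoting complex and had the highest FPKM of the group. Its level was 36.9, 58.3, 39.9 and 44.6 CPM in Control, 17.5, 20.5 and 5.18 CPM in Aged, and 26.1, 21.1 and 30.5 CPM in Aged+CF, and the groups did not overlap. It decreased in Aged by 1.64 ± 0.39 (adjusted p = 0.0227). Separase and its inhibitor securin differed in their values. Espl1, the gene of separase, stood at 35.3, 42.0, 29.7 and 37.3 CPM in Control, 12.8, 11.5 and 2.92 CPM in Aged, and 21.1, 14.7 and 26.0 CPM in Aged+CF, with a decrease in Aged of 1.996 ± 0.42 (adjusted p = 0.0156) and a difference of 1.19 ± 0.43 between Aged+CF and Aged (unadjusted p = 0.021, adjusted p = 0.236). Pttg1, the gene of securin, stood at 24.1, 28.7, 25.4 and 30.5 CPM in Control, 26.4, 35.7 and 27.5 CPM in Aged, and 23.6, 27.3 and 25.0 CPM in Aged+CF. All groups overlapped for Pttg1, its highest value was in Aged 33, and its fitted difference between Aged and Control was 0.14 ± 0.14 (adjusted p = 0.54), which turned to -0.0017 with library totals in place of TMM scaling. The difference between the fold changes of Espl1 and Pttg1 was not tested.

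**Figure D3:**
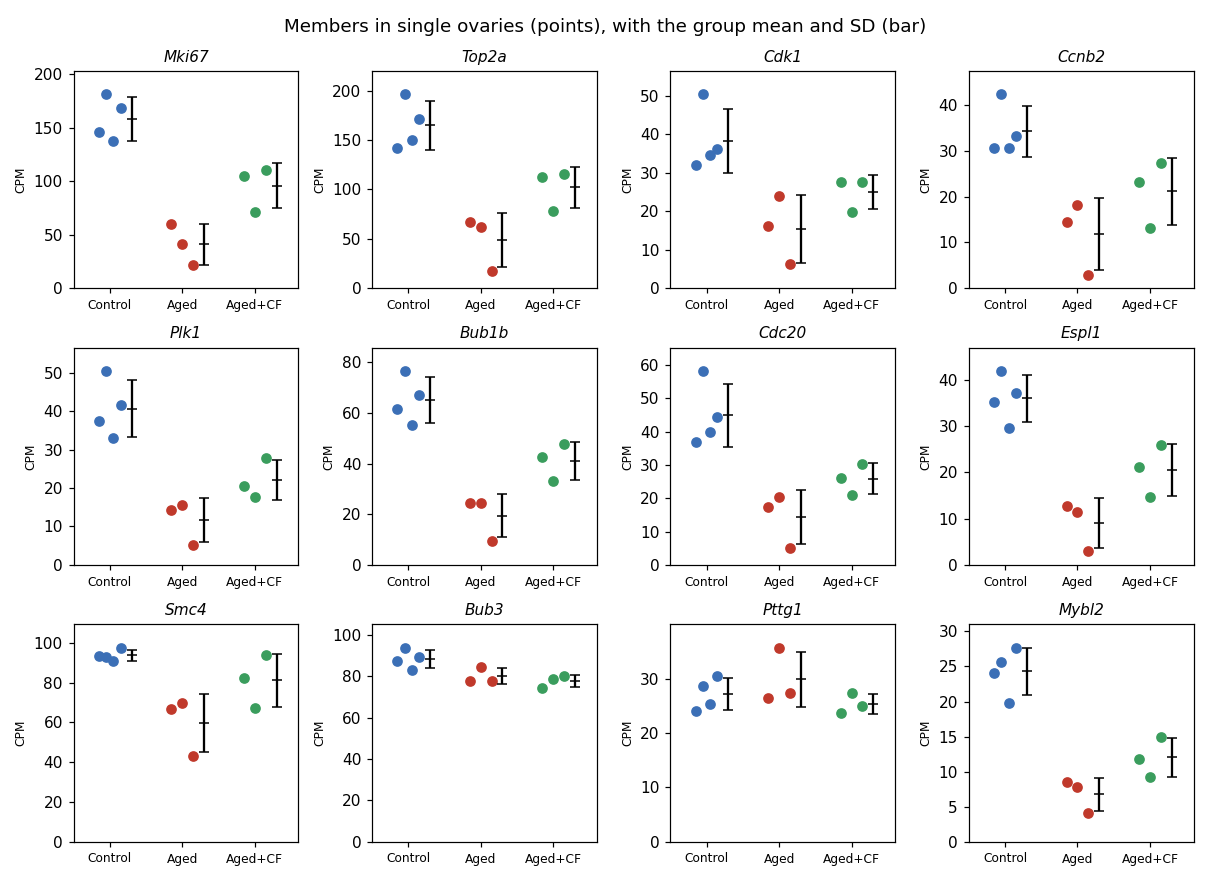
CPM of 12 members in each ovary (points, coloured by group), with the group mean and SD beside them. The 3 groups are ordered Control, Aged+CF, Aged in all panels but those of Bub3 and Pttg1, where the means lie between 77.9 and 88.5 CPM and between 25.3 and 29.9 CPM.

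The chromosomal passenger complex, which corrects wrong attachments and steers cytokinesis, consists of the Aurora B kinase, the scaffold Incenp, survivin (Birc5) and borealin (Cdca8). In Aged, 3 of the 4 decreased at adjusted p, and Aurkb missed it (-1.37 ± 0.43, adjusted p = 0.0577). Incenp, the subunit with the highest FPKM in the group and the smallest difference, was at 48.8, 61.9, 46.7 and 53.0 CPM in Control, 27.7, 27.6 and 15.8 CPM in Aged, and 36.5, 34.1 and 42.2 CPM in Aged+CF. The 3 ranges were separate, with a decrease in Aged of 1.15 ± 0.20 (adjusted p = 0.00843). Cdca8 was at 24.9, 34.2, 24.0 and 31.4 CPM in Control, 11.9, 12.7 and 3.97 CPM in Aged, and 17.8, 12.2 and 18.6 CPM in Aged+CF. It decreased in Aged by 1.59 ± 0.36 (adjusted p = 0.0182), and Aged+CF 32 fell between Aged 31 and Aged 33. Against Aged, Incenp alone of the 4 was called in Aged+CF at unadjusted p.

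Of the 10 centromere and kinetochore genes, 7 decreased in Aged at adjusted p and all 10 at unadjusted p, and no Control range overlapped an Aged range. Cenpf, a large protein of the outer kinetochore, had the largest decrease of the group. Its level was 49.7, 52.2, 46.9 and 53.4 CPM in Control, 23.5, 13.0 and 6.67 CPM in Aged, and 31.9, 28.6 and 39.2 CPM in Aged+CF, and it decreased by 1.81 ± 0.34 in Aged (adjusted p = 0.0107) and stood 1.21 ± 0.35 above Aged in Aged+CF (unadjusted p = 0.00597, adjusted p = 0.178). Of the inner centromere network, which links centromeric chromatin to the outer kinetochore, Cenpk and Cenpm did not pass adjusted p. Cenpk was at 4.03, 6.48, 4.46 and 5.99 CPM in Control, 2.98, 4.02 and 1.54 CPM in Aged, and 4.30, 3.04 and 4.17 CPM in Aged+CF, a difference of -0.88 ± 0.33 in Aged (adjusted p = 0.0955), and it shares exon bases with Ppwd1 on the opposite strand. Cenpm was at 9.40, 14.6, 8.92 and 12.5 CPM in Control, 4.18, 8.89 and 1.32 CPM in Aged, and 6.19, 5.51 and 7.83 CPM in Aged+CF. Aged 33 was just below the lowest Control ovary for Cenpm and above all Aged+CF ovaries, and the difference in Aged was -1.25 ± 0.49 (adjusted p = 0.111). All 4 subunits of the Ndc80 complex, which grips the microtubule, had values between -1.78 and -1.24 in Aged vs Control, and Spc25 was the one that did not pass adjusted p.

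The spindle genes act on microtubules and spindle poles, and 5 of 6 decreased in Aged at adjusted p. Aspm, which holds the poles focused and sets spindle orientation, was at 42.2, 54.1, 39.3 and 49.1 CPM in Control, 18.7, 13.5 and 4.58 CPM in Aged, and 31.4, 18.7 and 34.6 CPM in Aged+CF. Its decrease in Aged was 1.91 ± 0.41 (adjusted p = 0.0154), and Aged+CF 32 was just above Aged 31. Ckap2l, the spindle gene with the highest FPKM, was at 22.9, 30.7, 22.5 and 24.7 CPM in Control, 9.72, 10.9 and 3.20 CPM in Aged, and 15.3, 9.36 and 19.3 CPM in Aged+CF. It decreased in Aged by 1.67 ± 0.39 (adjusted p = 0.0212). Hmmr, a microtubule-binding protein of the spindle, was at 13.2, 17.7, 13.3 and 18.4 CPM in Control, 8.89, 9.95 and 2.26 CPM in Aged, and 13.2, 7.18 and 11.6 CPM in Aged+CF, a difference of -1.16 ± 0.43 in Aged (adjusted p = 0.094). Aged+CF 30 lay just below the Control ovaries and Aged+CF 32 below 2 Aged ovaries.

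All 4 cytokinesis genes decreased in Aged at adjusted p, and all 4 were called at unadjusted p in Aged+CF vs Aged. Prc1, which bundles the microtubules of the central spindle, was at 31.7, 37.0, 30.6 and 33.8 CPM in Control, 14.6, 12.9 and 6.45 CPM in Aged, and 21.9, 16.7 and 26.0 CPM in Aged+CF. It decreased in Aged by 1.56 ± 0.26 (adjusted p = 0.00772) and was 0.93 ± 0.27 higher in Aged+CF than in Aged (unadjusted p = 0.00657, adjusted p = 0.182). Anillin (Anln), the scaffold of the contractile ring, was at 35.7, 43.5, 38.4 and 40.9 CPM in Control, 22.9, 17.2 and 11.8 CPM in Aged, and 28.5, 25.8 and 35.4 CPM in Aged+CF. For both genes the 3 groups did not overlap, although Aged+CF 34 came close to Control 31 for Anln. The decrease of Anln in Aged was 1.20 ± 0.21 (adjusted p = 0.00876).

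All 9 genes of chromosome structure decreased in Aged at adjusted p, and 7 of them were called at unadjusted p in Aged+CF vs Aged. Mki67 encodes Ki-67, the surfactant of mitotic chromosomes and the usual marker of dividing cells. It stood at 146, 181, 137 and 168 CPM in Control, 59.8, 41.3 and 21.3 CPM in Aged, and 105, 71.5 and 111 CPM in Aged+CF, with 3 separate ranges. On the log2 scale Mki67 decreased by 1.95 ± 0.31 in Aged (adjusted p = 0.0064), lay 1.23 ± 0.32 above Aged in Aged+CF (unadjusted p = 0.00298, adjusted p = 0.168), and differed by -0.73 ± 0.29 between Aged+CF and Control (unadjusted p = 0.033, adjusted p = 0.309). Top2a, the topoisomerase that untangles sister chromatids, had the highest FPKM of the group, and its levels were 142, 197, 150.2 and 171 CPM in Control, 66.7, 62.2 and 17.4 CPM in Aged, and 113, 78.1 and 116 CPM in Aged+CF. It decreased in Aged by 1.76 ± 0.39 (adjusted p = 0.0177). Cdca5, or sororin, which keeps cohesin on chromatids, was at 13.7, 21.2, 15.3 and 17.4 CPM in Control, 6.08, 5.36 and 0.937 CPM in Aged, and 9.86, 6.66 and 11.1 CPM in Aged+CF, and its decrease of 2.04 ± 0.50 in Aged (adjusted p = 0.024) was the largest among the members. At the other end, the condensin subunit Smc4 was at 93.4, 92.8, 91.0 and 97.5 CPM in Control, 66.5, 69.6 and 43.1 CPM in Aged, and 82.4, 67.2 and 93.6 CPM in Aged+CF. Its decrease was 0.65 ± 0.17 (adjusted p = 0.0295), and Aged+CF 34 was within the Control range.

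Genes of the same processes outside the set were read from a list of 78. In Aged vs Control, 36 of the 78 decreased at adjusted p (6.06% of tested genes) and 42 at unadjusted p (9.44%). None increased by either rule, and the median log2 fold change was -0.78. With CEFFE, relative to Aged, 13 were higher at unadjusted p (3.91% of tested genes) and 1, Anapc13, lower (-0.68, unadjusted p = 0.0207). None passed adjusted p in either direction, and the median was 0.36. In Aged+CF vs Control, 14 were lower at unadjusted p (4.36% of tested genes) and none at adjusted p. The complexes described next were picked after the values were seen, and differences between subunits were not tested. The 12 listed core subunits of the anaphase-promoting complex, whose activator Cdc20 decreased, ranged from -0.26 to 0.54 in Aged vs Control with none called. In the Mis12 complex, the platform of the outer kinetochore, Dsn1 (-0.99, adjusted p = 0.0260) and Nsl1 (-1.53, adjusted p = 0.0180) decreased, while Mis12 stood at 0.02 and Pmf1 at -0.57. All 5 subunits of condensin I were called at adjusted p, and of the 3 subunits particular to condensin II only Ncapg2 was (-1.10, adjusted p = 0.0142), while Ncapd3 (-0.51, adjusted p = 0.025) did not reach the fold limit. Of the RZZ complex, which docks checkpoint proteins at the kinetochore, Kntc1 decreased by 2.09 (adjusted p = 0.00969) and Zwilch by 1.26 (adjusted p = 0.00892), and Zw10 stood at -0.21 (adjusted p = 0.18).

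Markers of oocytes and of granulosa cells were read in the same ovaries. The 16 oocyte markers summed to between 544 and 727 CPM in Control, 70.7 and 185 CPM in Aged, and 250.4 and 366 CPM in Aged+CF. Of these, 13 decreased in Aged at adjusted p (6.06% of tested genes), and the median log2 fold change was -2.50. Set against Aged, 6 had a higher level in Aged+CF at unadjusted p (3.91% of tested genes). Figla was at 0 CPM in Aged 33, and each of the others had counts in all ovaries. The 12 granulosa markers summed to between 5645 and 8834 CPM in Control, 3695 and 4851 CPM in Aged, and 3293 and 5540.3 CPM in Aged+CF. Their median log2 fold change in Aged was -0.83, and 2 of 12 decreased at adjusted p (6.06% of tested genes). The Aged+CF range spanned the Aged range, and 1 of the 12 was higher in Aged+CF than in Aged at unadjusted p (3.91% of tested genes). Aged 34 had the lowest oocyte sum of all ovaries and Aged+CF 32 the lowest granulosa sum. Each was the lowest of its group for both marker sums and for the mitosis genes. Summed luteal markers ran the other way, at 6608 to 11890.1 CPM in Control, 15693 to 36803 CPM in Aged and 14221 to 22297 CPM in Aged+CF. Lhcgr alone of the 7 luteal markers had a lower mean in Aged+CF (446 CPM) than in Control (539 CPM), and its mean in Aged was 1872 CPM.

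With a score of the oocyte markers as a covariate in the fit, the median log2 fold change of the members was 0.31 for the Aged group relative to Control, -0.15 for Aged+CF relative to Aged and 0.13 for Aged+CF relative to Control, and no member was called in the directions counted above by either p. With this covariate 5, 4 and 3 members had an unadjusted p under 0.05 in the 3 comparisons, whatever their direction or fold. Among all tested genes, this fit called 3951, 2723 and 1833 in either direction at unadjusted p, and 7, 5 and 10 at adjusted p. With a granulosa score, added after the data were seen, the medians were -0.53, 0.64 and 0.13, and 11, 25 and 0 members were called in those directions at unadjusted p. Among all tested genes, the fit with the granulosa score called 1971, 1479 and 599 in either direction at unadjusted p, and 8, 1 and 1 at adjusted p. The oocyte score did not overlap between the 3 groups, so a change per cell and a change in the number of oocytes cannot be told apart in these 10 ovaries. The granulosa score overlapped between Aged and Aged+CF, with Aged+CF 32 (-0.92) below Aged 31 (-0.38) and Aged 33 (-0.29). In Control it ran from 0.15 (Control 31) to 1.22 (Control 32), above every Aged and Aged+CF ovary. In the comparisons with Control, a change per cell and a change in the number of granulosa cells therefore cannot be told apart either.

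**Figure D4:**
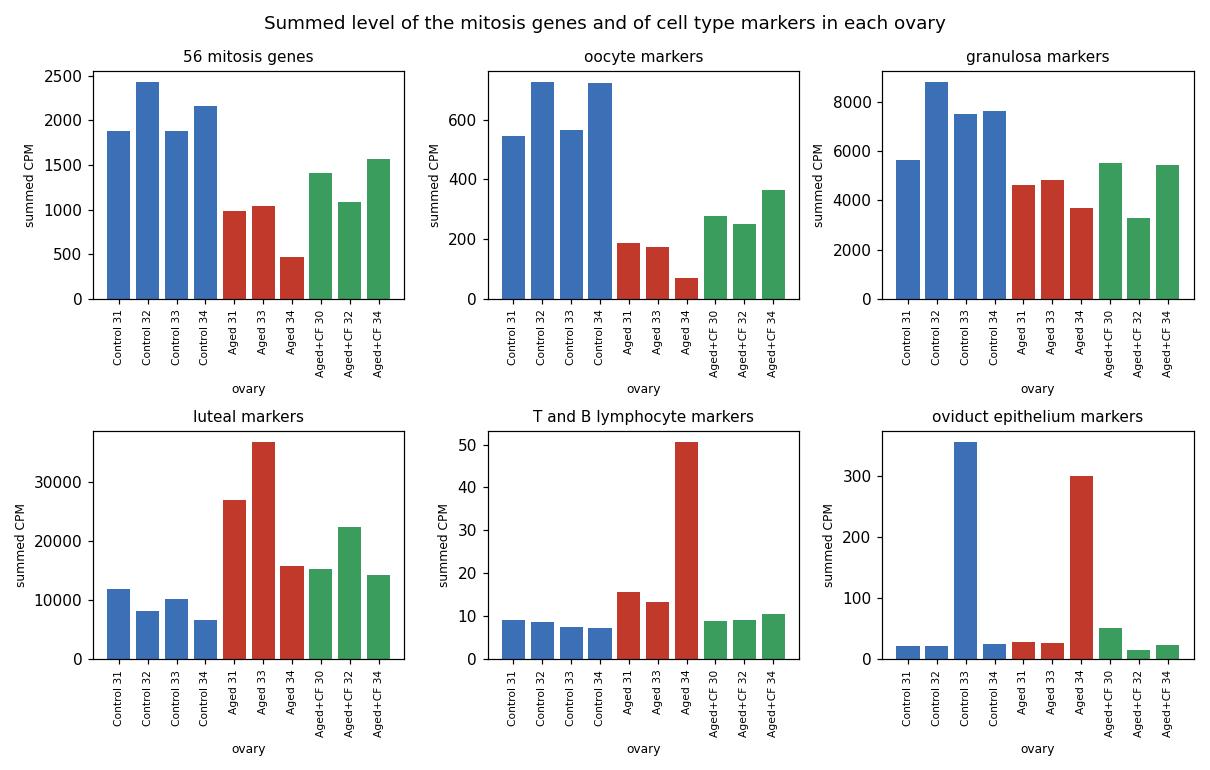
Summed CPM of the 56 mitosis genes and of 5 lists of cell type markers in each ovary (bars from 0, coloured by group: blue Control, red Aged, green Aged+CF). The mitosis genes and the oocyte markers are both highest in Control and lowest in Aged 34, and the oviduct markers are high in Control 33 and Aged 34 only.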

How the data were processed

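RNA was sequenced from whole ovary in 4 Control, 3 Aged and 3 Aged+CF samples, grouped by their labels. The authors deposited 2 values per gene and ovary, a raw read count and an FPKM. In all genes with at least 2 ovaries above 0, the deposited FPKM equalled the count over the total count and 1 gene length per gene, within 1 percent. The submitters' processing notes name TopHat, Cufflinks 2.1.1 and GRCm38.p4. The aligner's version, the counting tool, the annotation and the strand setting are not given in the sources used here.

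edgeR 4.0 (R 4.3) was run on these counts. A gene was kept by filterByExpr with the groups as design (18956 of 55487), libraries were scaled by TMM, and a quasi-likelihood model with a mean per group was fitted to all 10 ovaries. The quasi-likelihood F test was used for the 3 comparisons, with Benjamini-Hochberg adjustment over the tested genes. The SE is the log2 fold change over the square root of F. The study sets a fold change of 1.5 with an adjusted p in its methods and with a p not said to be adjusted in its results, so both the adjusted and the unadjusted p were used. CPM used TMM-scaled library sizes, and log2 CPM for spreads and scores had a prior count of 2. The scores were means of standardized log2 CPM over the oocyte or granulosa markers. Levels of different genes were compared by FPKM only. The fit was tested on simulated counts. No ovary was a duplicate of another in its group, and pairs across groups were not compared. Between 15761789 and 21318254 reads were counted per ovary.

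The members, the 9 role groups, the 78 other mitosis genes, the marker lists and the tests were chosen with earlier results of these data known. In each role group, values in every ovary are given for the member with the highest mean FPKM and those with the lowest and highest log2 fold change in Aged vs Control, and for Mki67. Genes named from the 78 were picked after their values were seen. Positions are from GENCODE M21 (GRCm38), and promoters, of 250 bases before and 50 after the start, from RefSeq (GRCm38.p6), of which only the bases before the start were searched.

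Alternatives were no filter on low counts, DESeq2 size factors, library totals without TMM, the Wald test of DESeq2 1.42, the replicate number as a block, a fit of the 2 groups compared alone, the oocyte score as a covariate, leaving out each ovary in turn, and a promoter window of 150 bases. A granulosa score as a covariate and leaving out Control 33 and Aged 34 together were added after the data were seen.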

Additional observations from a re-analysis of the deposited data

How the results depend on the processing

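The count of members lower in Aged than in Control at adjusted p, 44, was 27 with only the compared groups in the fit, 0 with the oocyte score or the granulosa score as a covariate, and between 22 and 48 with single ovaries left out. At unadjusted p, the count of 54 became 0 with the oocyte score and 11 with the granulosa score. For members higher in Aged+CF than in Aged, the count of 0 at adjusted p was 8 by DESeq2's Wald test, and the count of 25 at unadjusted p was 0 with the oocyte score, 16 with only the compared groups, 13 without Control 33 and Aged 34, and 10 to 42 with single ovaries left out. For members lower in Aged+CF than in Control, the count of 0 at adjusted p was 2 by DESeq2's Wald test, 7 with only the compared groups and 1 without Control 33 and Aged 34. The count of 11 at unadjusted p was 18 without the filter on low counts, 24 with library totals, 21 by the Wald test, 37 with only the compared groups, 41 without Control 33 and Aged 34, 0 with either score, and 2 to 13 with single ovaries left out. The medians became 0.31, -0.15 and 0.13 with the oocyte score for Aged against Control, Aged+CF against Aged and Aged+CF against Control, and -0.53 and 0.13 with the granulosa score in the first and the last. The share of member promoters with both motifs was 26.9% in 150 bases, against 2.24% of all promoters. Calls over all tested genes in either direction rose with some of these settings and fell with others, in part as given above. In Aged vs Control at adjusted p, they were 2096 in the main fit and 1440 with only the compared groups. With the oocyte score they were 7 and with the granulosa score 8. In Aged+CF vs Aged at adjusted p, they were 1 in the main fit, 556 without Aged 34 and 289 without Control 33 and Aged 34. The cause of these changes was not tested.

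Same-numbered ovaries are from mice of different groups, and their deviations from the group means correlated at -0.18 to 0.15 across genes. Each correlation rests on a single pair of ovaries and on means of few ovaries. It cannot decide whether same-numbered ovaries were handled together, and the labels do not say what the numbers mean. With the replicate number as a block, the counts at adjusted p were 0, 0 and 0, those at unadjusted p were 49, 6 and 1, and the medians were -1.66, 0.97 and -0.60 in the 3 comparisons. Among all tested genes, the block fit called 80, 0 and 9 in either direction at adjusted p, and 2980, 888 and 1311 at unadjusted p.

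Library totals in place of TMM scaling moved the median of all tested genes by -0.13 in Aged vs Control, where the members' median was -1.68. Of the 1175 recomputed log2 fold changes of the 25 members chosen by rule, 1013 kept their direction and side of the threshold, 77 lost it, 19 gained it and 66 changed direction. With library totals, Pttg1 turned to -0.0017 in Aged vs Control and Bub3 to 0.051 in Aged+CF vs Aged. Cenpm in Aged+CF vs Aged ranged from -0.012 (without Aged 34) to 1.24 (without Aged 33), and was -0.012 without Control 33 and Aged 34. With the oocyte score as a covariate, log2 fold changes turned in Aged vs Control for Ccnb2 1.07, Cdk1 0.52, Plk1 0.062, Ttk 1.10, Cdc20 0.47, Espl1 0.29, Cdca8 0.30, Cenpm 1.28, Cenpk 0.58, Ckap2l 0.30, Aspm 0.18, Hmmr 1.07, Top2a 0.32, Cdca5 0.68, Smc4 0.15. In Aged+CF vs Aged they turned for Ccnb2 -0.49, Cdk1 -0.25, Plk1 -0.064, Ttk -0.42, Cdc20 -0.24, Cdca8 -0.21, Cenpm -0.85, Cenpk -0.34, Ckap2l -0.16, Hmmr -0.52, Cdca5 -0.20. In Aged+CF vs Control they turned for Ccnb2 0.58, Cdk1 0.27, Bub1b 0.091, Ttk 0.68, Cdc20 0.23, Espl1 0.29, Pttg1 0.012, Cdca8 0.091, Cenpm 0.43, Cenpf 0.19, Cenpk 0.24, Ckap2l 0.14, Aspm 0.30, Hmmr 0.55, Anln 0.057, Top2a 0.33, Cdca5 0.48, Smc4 0.15. With the granulosa score they turned in Aged vs Control for Cenpk 0.11, Hmmr 0.041, and in Aged+CF vs Control for Ccnb2 0.47, Cdk1 0.34, Bub1b 0.027, Ttk 0.18, Cdc20 0.18, Espl1 0.058, Cdca8 0.047, Cenpm 0.24, Cenpk 0.38, Ckap2l 0.17, Aspm 0.21, Hmmr 0.46, Anln 0.052, Top2a 0.24, Cdca5 0.24, Smc4 0.15.

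With 3 or 4 ovaries per group, single ovaries moved the counts by the ranges above. The labels give no sequencing batch, and none was set against the groups.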

Other observations

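Members of the set differed widely in abundance. By mean FPKM over the 10 ovaries, a scale per gene length, Ccnb2 (15.5), Cdc20 (13.2), Ube2c (11.5), Top2a (10.5) and Mki67 (10.2) were highest, and Cenpk (0.66), Cenpi (0.834) and Ndc80 (0.936) lowest. Abundance did not set apart the members that hardly differed, since Bub3 had a mean FPKM of 8.42 and Pttg1 one of 5.75.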
